A study of Mus musculus with 6 samples.

Results

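Neural progenitor and neuronal genes whose signal was lower after 4-hydroxytamoxifen (OHT) are described here across 3 clones of mouse embryonic stem cells. The 9 genes are Sox1, Nes, Cnr1, Insm1, Tuba1a, Kif5a, Dclk2, Cdh10 and Igf2bp3, out of 18194 genes on the arrays. They were chosen by their OHT difference in these same data, most of them being low with OHT in at least 1 clone, so their OHT values are a description and were not tested. All 26 probe sets annotated to 1 of these genes alone were read, out of 45101. A further probe set is annotated to Tuba1a together with the pseudogene Gm6682, and its values are given apart.

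Each clone of the 129/B6 hybrid background gave 1 array without OHT (OHT-) and 1 array with it (OHT+), 6 arrays in all. Clone 3031 has wild-type Yaf2 (Yaf2wt). Clones 3086 and 3087 carry the Yaf2 lesion, which the titles call a knockdown (Yaf2kd) and the genotype field a mutant. The OHT+ cells were exposed for 24 hours to 0.8 µM of the drug, and their labels give them as Rybp-depleted or Mut RYBP. The OHT- cells of the same clones are labelled wild type for RYBP. No array here holds OHT-treated cells with intact Rybp, so the drug and the loss of Rybp cannot be told apart. Yaf2wt rests on a single clone. Cells grew with LIF either on gelatin or on irradiated fibroblasts, and which array had which is not stated.

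Rybp and Yaf2 are homologous subunits of variant Polycomb repressive complex 1, a chromatin complex that modifies histones and helps keep developmental genes silent in embryonic stem cells. Sox1 encodes a SoxB1 transcription factor that marks the first committed neural progenitors, and Nes encodes nestin, the intermediate filament protein of those progenitors. Insm1 is a zinc-finger regulator of neurogenic and endocrine progenitors. Tuba1a, Kif5a and Dclk2 act in the neuronal cytoskeleton, Cdh10 in cell adhesion and Cnr1 in cannabinoid signalling. Igf2bp3 encodes an oncofetal RNA-binding protein that is not specific to neural cells.

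Of the 9 genes, 7 had an entry in the RefSeq promoter table (GRCm38.p6), with 9 windows among them that run from 250 bases before the start of transcription to 50 after it. Insm1 and Kif5a had none. The stretches shown are the 250 bases before the start for 3 members that were lower with OHT in all 3 clones and whose annotated gene begins at that start. They are written 5′ to 3′ on the gene's strand, with each CpG in capitals, because Polycomb complexes are known to occupy CpG-rich promoters. Sox1 lies at chr8:12395269-12395518 (+), Nes at chr3:87970843-87971092 (+) and Tuba1a at chr15:98953502-98953751 (-).
Sox1: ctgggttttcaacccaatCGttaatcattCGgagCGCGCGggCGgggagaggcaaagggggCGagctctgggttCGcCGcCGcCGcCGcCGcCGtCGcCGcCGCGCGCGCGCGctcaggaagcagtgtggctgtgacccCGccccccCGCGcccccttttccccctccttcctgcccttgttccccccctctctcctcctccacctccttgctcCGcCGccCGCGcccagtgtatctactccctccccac
Nes: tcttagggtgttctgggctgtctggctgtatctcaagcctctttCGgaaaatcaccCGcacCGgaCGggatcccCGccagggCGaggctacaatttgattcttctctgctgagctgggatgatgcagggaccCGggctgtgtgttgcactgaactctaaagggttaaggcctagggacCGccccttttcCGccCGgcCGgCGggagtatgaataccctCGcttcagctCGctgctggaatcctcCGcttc
Tuba1a: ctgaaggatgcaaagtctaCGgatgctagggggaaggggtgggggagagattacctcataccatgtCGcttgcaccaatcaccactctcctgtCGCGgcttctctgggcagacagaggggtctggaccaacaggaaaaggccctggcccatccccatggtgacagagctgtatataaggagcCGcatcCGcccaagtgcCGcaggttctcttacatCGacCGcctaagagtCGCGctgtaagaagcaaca

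These stretches hold 29, 15 and 11 CpG in the same order. Over the whole 300-base windows, Sox1 had 37 CpG and a GC content of 70.7%, and the first Cnr1 window had 40 CpG and 76.3%. The median over all 32851 windows was 7 CpG and 52.7% GC. Cdh10 was at the other end with 2 CpG and 37.7% GC, so the 7 genes with an entry share no base composition at their starts. Igf2bp3 had 25 CpG, Dclk2 27, Nes 18 and Tuba1a 16, and the other Cnr1 windows 33 and 5. Motifs were searched as exact letters on both strands. The E-box CACGTG was in 2 of the 9 windows (Igf2bp3 and the second Cnr1 window), against 7.15% of all windows. The E2F core TCCCGC was in 2 (Nes and the first Cnr1 window), against 20.0%. The SOX core ACAAAG was in 2 (Dclk2 and the second Cnr1 window), against 18.7%, and ATTGTT in 0, against 10.7%. These matches are descriptions of letters and not binding sites.

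All values are linear intensities after quantile normalization, so the median is 102 on every array, and differences are OHT+ minus OHT- of log2 intensity. A probe set or group is called dim when its mean lies under 106, the mean signal below which 40% of genes lie. The intensity of different probe sets is not compared, since probes differ in efficiency. The targeted gene was read first. Rybp has 2 probe sets, both also assigned to the pseudogene Rybp-ps. The first went from 2014 ± 239 (SD, n = 3) without OHT to 85.8 ± 27.7 with it, and the second from 242 ± 82.4 to 3162 ± 332. They separate the OHT+ from the OHT- arrays in all clones but in opposite directions, so the remaining level of intact Rybp RNA is not known from them. Yaf2 was at 276 ± 27.2 (n = 4) in the Yaf2kd arrays and 793 ± 33.6 (n = 2) in the Yaf2wt arrays by its first probe set, and at 237 ± 18.1 and 629 ± 40.2 by its second. As a sign of RNA quality, Gapdh had a 3'/5' ratio of 0.801 to 0.832 over the 6 arrays, and Actb one of 1.31 to 1.44. All 12 embryonic stem cell markers were above the dim limit, among them Pou5f1, Nanog and Zfp42.

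Both progenitor markers were lower with OHT in every clone by their brightest probe set. Sox1 (1438729_at) was at 177 without OHT and 109.7 with it in clone 3031, at 199.95 and 102 in clone 3086, and at 198 and 65.4 in clone 3087. All 3 OHT+ arrays lay below all 3 OHT- arrays, and clone 3087 had the lowest value. The mean difference was -1.09 ± 0.47 (log2, SD over 3 clones), a 2.13-fold lower signal. Since 2 of the OHT+ arrays were under the dim limit, the size is uncertain. In these bulk samples, fewer Sox1-expressing cells and less Sox1 RNA per cell cannot be told apart. The other Sox1 probe set (1422205_at) was between 4.28 and 31.4 on all arrays and is dim throughout.

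Nes (1449022_at) was at 336 without OHT and 229 with it in clone 3031, at 512 and 363 in clone 3086, and at 532 and 298 in clone 3087. Each clone was lower with OHT, but the groups overlap, because clone 3031 without OHT lay below clone 3086 with it. The differences were -0.55, -0.50 and -0.84, with a mean of -0.63 ± 0.18. Its second probe set, near the dim limit, did not show the same: the differences were -0.33, -0.24 and 0.23. The third was at most 46.5 on every array, and its differences ranged from -2.68 to 1.25. The lower Nes signal therefore rests on 1 of 3 probe sets.

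Insm1, the zinc-finger regulator, was read by 2 probe sets above the dim limit, and they disagreed in clone 3086. The brighter (1455865_at) stood at 560.3 without OHT and 243 with it in clone 3031, at 532 and 227 in clone 3087, but at 246 and 291 in clone 3086. Clone 3086 was thus low already without OHT by this probe set, and its difference was 0.24 against -1.21 and -1.23. By the other (1421399_at) clone 3086 went from 345 to 187, clone 3031 from 309 to 183 and clone 3087 from 262 to 130.5. There all OHT+ arrays lay below all OHT- arrays, with a mean difference of -0.88 ± 0.12.

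Cnr1 encodes the CB1 cannabinoid receptor, which acts at presynaptic terminals and in axon guidance. Its brighter probe set (1434172_at) was at 172, 182 and 173 without OHT in clones 3031, 3086 and 3087, and at 98.7, 71.9 and 71.2 with it. The OHT- arrays had an SD of 5.51, and the OHT+ arrays all lay below them and below the dim limit. The mean difference was -1.14 ± 0.30, and it differed from that of Sox1 by less than the spread of either. Its second probe set stayed between 50.7 and 64.5 on all arrays, under the limit, with differences between -0.15 and 0.10. With values set to the dim limit where they were lower, the Cnr1 difference was -0.72, smaller in size than those of Tuba1a and Sox1 (-0.84 each), Igf2bp3 (-0.78) and Insm1 (-0.73) under the same floor, so its rank among the 9 genes is not settled.

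Among the cytoskeletal genes, Tuba1a, an alpha-tubulin of newborn neurons that is also made in dividing cells, was lower in all clones to nearly the same extent. Its probe set 1418884_x_at went from 14621 to 7726 in clone 3031, from 17585 to 10480 in clone 3086 and from 15404.5 to 8587 in clone 3087. The groups do not overlap, and the differences of -0.92, -0.75 and -0.84 give a mean of -0.84 ± 0.09. The suffix x of this probe set marks, in Affymetrix naming, probes that can also match other transcripts, and alpha-tubulin genes are nearly identical in sequence. Whether other tubulin RNAs add to the signal was not tested. The probe set shared with Gm6682 was dim on all arrays, between 38.2 and 60.2.

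Kif5a, the neuronal heavy chain of the motor kinesin-1, had its largest difference in clone 3031. Its probe set 1434670_at was at 371 without OHT and 162 with it there, at 221 and 181 in clone 3086 and at 130.0 and 129.5 in clone 3087. The OHT- arrays were spread over a wider range than the OHT+ arrays, and the groups overlap. The differences were -1.19, -0.28 and -0.01. Its second probe set gave -0.48, -0.89 and 0.17, so the order of the clones changed with the probe set. The third was at most 15.2 on any array.

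Dclk2, a doublecortin-like kinase that binds microtubules, was by 1428222_at at 415 and 188 in clone 3031, at 325 and 268 in clone 3086 and at 235 and 265 in clone 3087, without and with OHT. The differences were -1.14, -0.28 and 0.17, so the direction turned in clone 3087, and the groups overlap. Both other probe sets were dim on all arrays and showed no common direction.

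For Cdh10, a type II cadherin of neural tissue, the values of 1425092_at were 228 and 74.6 in clone 3031, 177 and 141 in clone 3086 and 114 and 93.5 in clone 3087. All clones were lower with OHT, while the groups overlap. The differences were -1.61, -0.33 and -0.28, and 2 of the OHT+ arrays were dim. Its 3 other probe sets were at most 96.0 on any array, with differences from -2.39 to 1.94.

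By the brightest probe set, clone 3031 without OHT was the highest array for Kif5a, Dclk2 and Cdh10, and also for Insm1. By the second Kif5a probe set the highest was clone 3086 without OHT, at 151 against 127 in clone 3031. Without OHT, the mean of the Yaf2kd clones minus clone 3031 was -1.13 for Kif5a, -0.69 for Cdh10 and -0.59 for Dclk2 (log2). With OHT the same differences were -0.08, 0.62 and 0.50. The set was chosen for low values with OHT in at least 1 clone, and in each clone 1 array stands against 1. No test of a difference between clones was made.

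**Figure D1:**
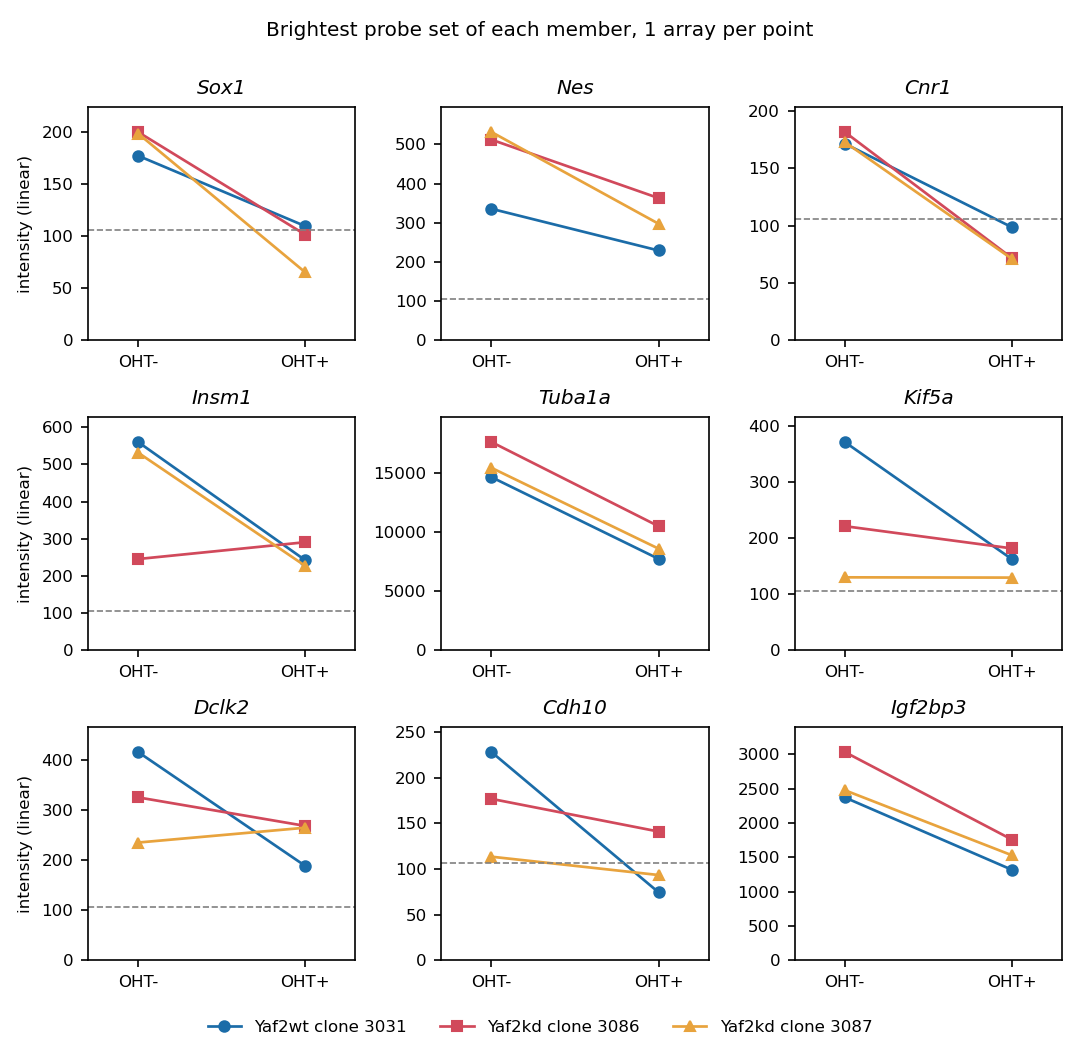
Linear intensity of the brightest probe set of each of the 9 genes without (OHT-) and with OHT (OHT+), 1 point per array and 1 line per clone; the dashed line marks the dim limit of 106 in all panels except Tuba1a and Igf2bp3. Sox1, Cnr1, Tuba1a and Igf2bp3 separate the OHT+ from the OHT- arrays, while for Kif5a, Dclk2 and Cdh10 the steepest line is that of clone 3031.

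Igf2bp3, which binds and stabilises fetal growth and proliferation mRNAs, was read by 6 probe sets, all above the dim limit on every array. The brightest (1422610_s_at) was at 2372 without OHT and 1319 with it in clone 3031, at 3033 and 1759 in clone 3086, and at 2477 and 1530.4 in clone 3087. The groups do not overlap, and the differences of -0.85, -0.79 and -0.69 were nearly equal. Its mean of -0.78 ± 0.08 had the smallest spread over clones among the 9 genes. Over the 6 probe sets the mean differences ran from -0.47 to -0.88. In clones 3031 and 3086 all 6 were lower with OHT. In clone 3087, 2 probe sets stood apart: 1433731_at went from 749 to 700.3 (-0.10) and 1433732_x_at from 910 to 922 (0.02), where the other 4 gave -0.40 to -0.79. Both carry the same source sequence in the annotation, and where on the transcript the 6 lie was not analysed here.

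**Figure D2:**
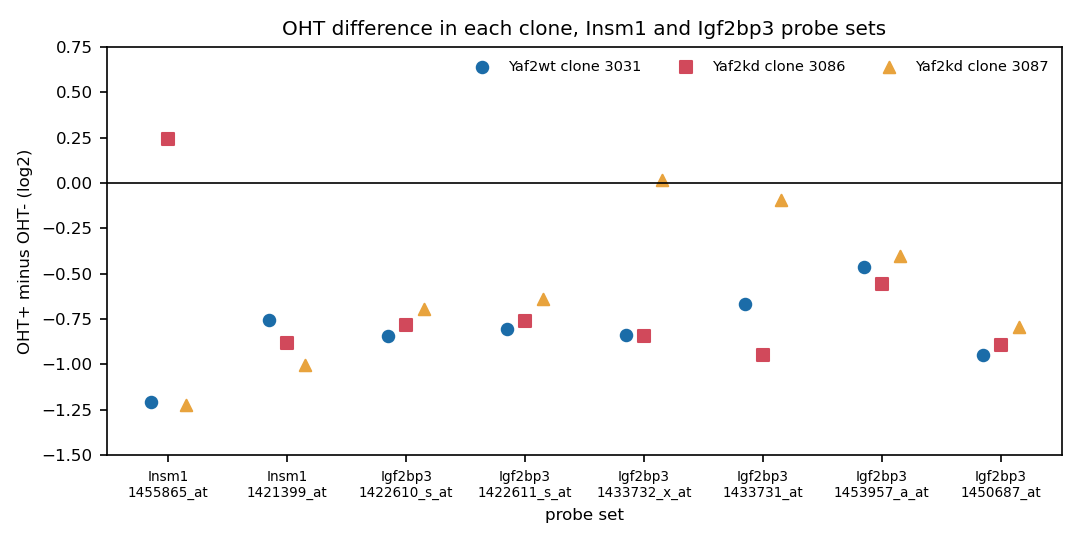
OHT+ minus OHT- difference (log2 intensity) in each clone for the 2 Insm1 and 6 Igf2bp3 probe sets, with 1 point per clone. The brighter Insm1 probe set is above 0 in clone 3086, and 2 Igf2bp3 probe sets are near 0 in clone 3087 while the others are below it in every clone.

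Over the 26 probe sets, 17 had a mean signal above the dim limit and 9 below it. Of the 17, 12 were lower in all 3 clones and 8 had all OHT+ arrays below all OHT- arrays. Of all 19174 probe sets above the limit that are annotated to 1 gene, 19.1% were lower in all 3 clones and 7.46% did not overlap in this direction; since the members were chosen for low values, nothing is read from the contrast. Of the 9 dim probe sets 2 were lower in all 3 clones, against 13.5% of all dim probe sets annotated to 1 gene. The spread of the difference over clones had a median of 0.30 (SD, log2) in the 17 and 1.44 in the 9, so single differences of the dim probe sets carry little. By the brightest probe set, 7 of the 9 genes were lower in all 3 clones (20.4% of genes above the limit), and Insm1 and Dclk2 in 2. The OHT+ and OHT- arrays did not overlap for 4 of them (8.24% of genes above the limit). The 9 genes had a median difference of -0.92 for clone 3031, -0.50 for clone 3086 and -0.84 for clone 3087, against -0.02, -0.00184 and 0.00975 over all genes.

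**Figure D3:**
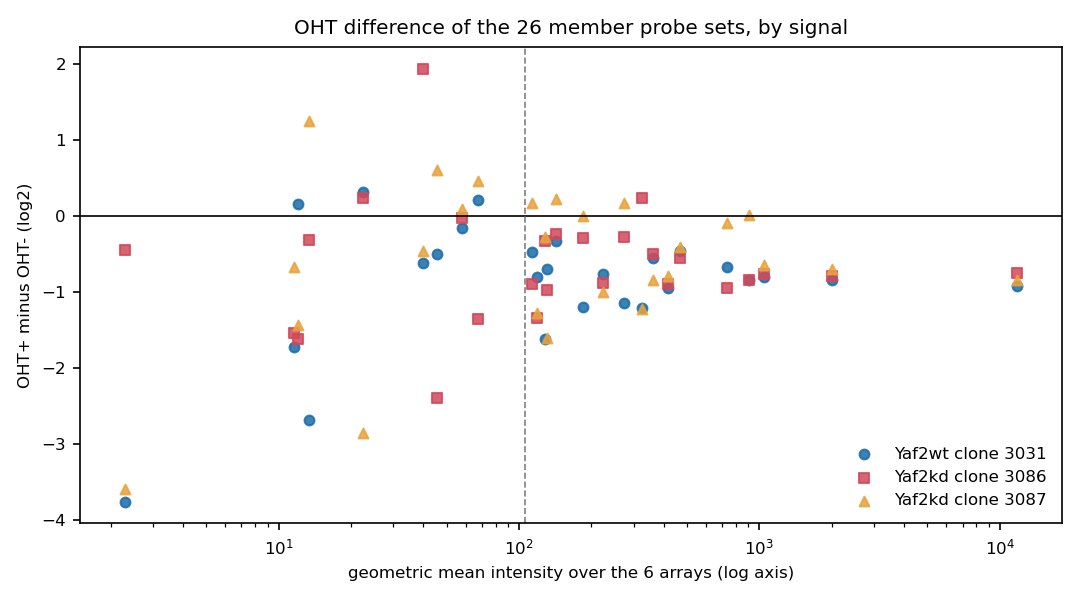
OHT+ minus OHT- difference (log2 intensity) of the 26 probe sets in each clone against their geometric mean intensity over the 6 arrays on a log axis, 3 points per probe set, with the dim limit of 106 as a dashed line. To the right of the line most points lie between 0 and -1.61, and to the left they scatter from -3.76 to 1.94.

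The effect of Yaf2 was not itself used to choose the genes. It was tested with OHT as a covariate, 4 Yaf2kd arrays against 2 Yaf2wt arrays. The fit has no term for an OHT difference that varies among clones, so such variation adds to its standard error (SE). The genes were chosen by their OHT differences, so their SE and p-values here are not independent of that choice. None of the 9 genes passed limma's threshold, and for these genes that is a description only. The Yaf2kd and Yaf2wt arrays overlapped for all of them, but these ranges pool OHT- and OHT+ arrays. As the genes were chosen for their OHT difference, nothing is read from that overlap. Within each OHT condition both Yaf2kd arrays lay above the Yaf2wt array for Nes, Tuba1a and Igf2bp3. The other members had no single direction in both conditions, and the share of all genes with such a pattern was not counted. Over all 18194 genes limma called 0 (0%), and also 0 once dim genes were dropped and 0 with an intensity trend. An unadjusted p under 0.05 was reached by 1319 genes (7.25%). Among genes above the limit, 12.9% had all Yaf2kd arrays above the Yaf2wt arrays and 9.12% had them all below.

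Nes had the largest difference relative to its error. It was at 426 ± 114 (SD, n = 4) in the Yaf2kd arrays and 283 ± 75.2 (n = 2) in the Yaf2wt arrays, and its log2 difference of 0.58 ± 0.14 (SE) had an adjusted p of 0.671 by limma. With the dim genes left out that p was 0.326. Kif5a was at 165 ± 44.3 and 266 ± 147, a difference of -0.61 ± 0.38 (adjusted p 0.724 by limma). It was -0.08 without the Yaf2wt OHT- array and -1.13 without the Yaf2wt OHT+ array. Igf2bp3 (0.26 ± 0.15) and Tuba1a (0.23 ± 0.15) were the others with a positive difference. Insm1 (-0.27 ± 0.40), Cnr1 (-0.21 ± 0.16), Sox1 (-0.13 ± 0.26), Dclk2 (-0.04 ± 0.31) and Cdh10 (-0.03 ± 0.42) were on the negative side, each with an adjusted p of at least 0.757 by limma. The median of the 9 was -0.04 and that of all genes 0.04. The Yaf2 lesion cannot be told apart from differences among the clones, since Yaf2wt is 1 clone.

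The OHT effect was tested on other neural genes, which were listed by function. Since earlier results of these data were known when the lists were made, the shares of listed genes are a description. Across 2 lists of 40 progenitor and 50 neuronal differentiation genes, 86 of 90 were measured and 0 passed limma's adjusted p over all genes, where limma called 0 of 18194 (0%, lowest adjusted p 0.242). Over all genes 1531 (8.41%) reached an unadjusted p under 0.05. When dim genes were dropped 38 of 10916 genes passed (0.348%) and with an intensity trend 60 (0.33%), and 0 of the listed neural genes were among them in either fit. Every array moved the 38: dropping either array of clone 3031 left 4, dropping the OHT+ array left 4 for clone 3086 and 1 for clone 3087, and dropping the OHT- array left 15 and 22. Of the 45 listed genes above the limit, 22 were lower in all 3 clones (48.9%, against 20.4% of all genes above the limit) and 6 higher (13.3%, against 18.2%). Their median difference was -0.21, and that of all genes above the limit -0.00816. The other 41 were dim, so a difference could be hidden by noise.

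Among the 38 measured progenitor genes, 6 were lower and 1 higher at an unadjusted p under 0.05 in the limma fit over all genes. Of these, Pou3f3 and Foxb1 on the lower side and Otx1 on the higher were dim. With the dim genes left out 8 were lower and 1 higher. The 19 above the limit had a median of -0.27 in clone 3031, -0.15 in clone 3086 and -0.37 in clone 3087, with 10 lower in all clones and 1 higher. Sox3, the SoxB1 relative of Sox1, was at 261, 399 and 488 without OHT and at 227, 161 and 131 with it in clones 3031, 3086 and 3087. Its arrays did not overlap, and the difference was small in clone 3031 (-0.20) and larger in the others (-1.31 and -1.90), with a mean of -1.14 ± 0.35 (SE) that did not pass (limma, adjusted p 0.555 over all genes). Sall2, a zinc-finger transcription factor, was at -0.70 ± 0.18 and Pax6, the regulator of forebrain and eye progenitors, at -0.68 ± 0.17 (adjusted p 0.497 and 0.483 by limma). The 1 member above the limit that was higher in all clones was Sox2 at 0.24 ± 0.10, which serves pluripotent cells as well as neural progenitors.

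In the 48 measured neuronal differentiation genes, 5 were lower and 4 higher at an unadjusted p under 0.05 in the limma fit over all genes. Of the lower ones Myt1, Dcx and Nhlh2 were dim. With the dim genes left out 4 were lower and 5 higher. Of the 26 above the limit, 12 were lower in all clones and 5 higher. Nnat, an imprinted neuronal proteolipid gene, was at -0.68 ± 0.11 (SE; limma adjusted p 0.398 over all genes and 0.0643 with the dim genes left out). Syp, which encodes the synaptic vesicle protein synaptophysin, was at -0.62 ± 0.27. Mapt, which encodes the microtubule-associated protein tau, went the other way: 397, 393 and 231 without OHT and 609, 613 and 565 with it, a difference of 0.85 ± 0.25 (limma adjusted p 0.541). Chga (0.52), Dpysl3 (0.50), Rbfox3 (0.44) and Elavl3 (0.42) were the other 4 that were higher in all 3 clones, and none of them passed. Members of this list thus lay on both sides of 0.

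**Figure D4:**
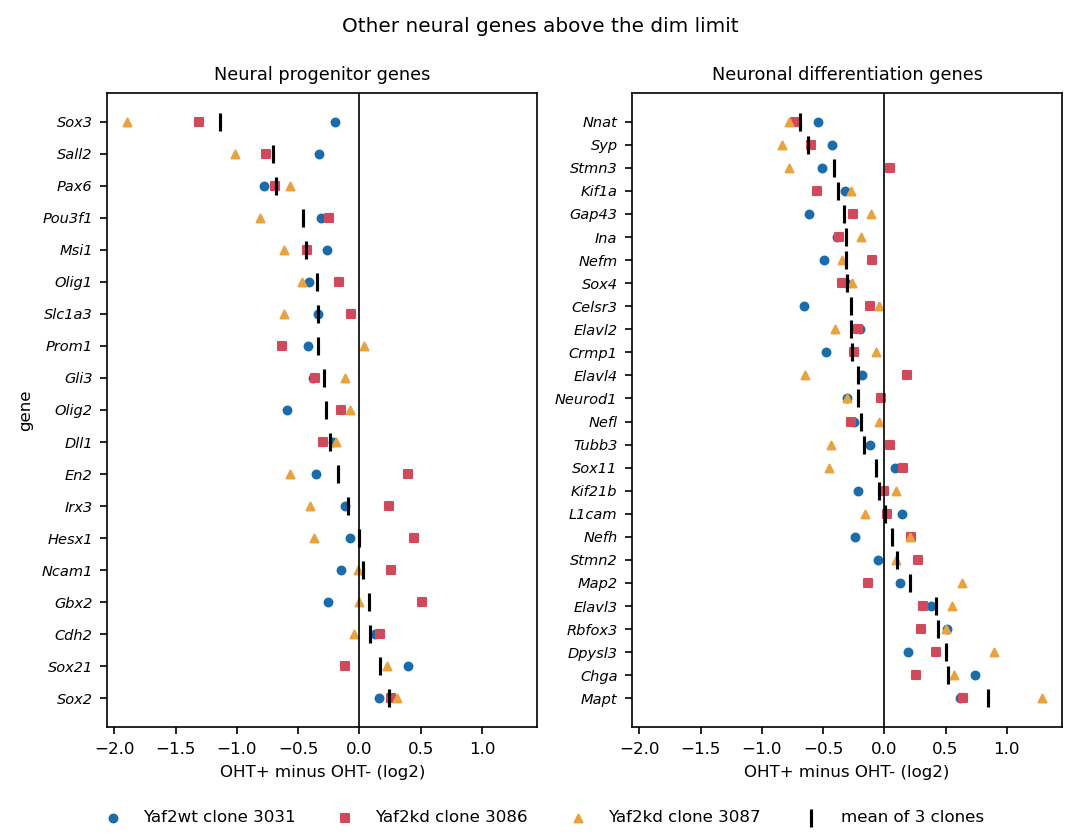
OHT+ minus OHT- difference (log2 intensity) of the 19 progenitor and 26 neuronal differentiation genes above the dim limit, with 1 coloured point per clone and a black bar at the mean of the 3 clones. Sox3, Sall2 and Pax6 have the lowest means in the progenitor panel and Nnat and Syp in the neuronal panel, where Mapt has the highest.

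The relatives of the 9 genes were read in the same fit, and no family member passed it. Of 4 other SoxB genes 3 were above the limit, Sox3 lower and Sox2 higher in all clones. In the tubulin family 11 of 14 genes were measured, 9 of them above the limit. Of those, 5 were lower in all clones (against 20.4% of all genes above the limit) and 1 higher (against 18.2%). That 1 was Tubb2a, and the lower ones included Tubb4a (-0.69 ± 0.26, SE), Tuba4a (-0.41 ± 0.16) and Tubb4b (-0.26 ± 0.13). Tubb3, the neuron-specific beta-tubulin, was at -0.17 ± 0.18. The kinesin-1 heavy chains Kif5b, found in most cells, and Kif5c, enriched in neurons, were at -0.34 ± 0.11 and -0.36 ± 0.14, each lower in all 3 clones. All 3 other doublecortin family genes were dim, and among the 10 other type II cadherins measured only Cdh11, a mesenchymal cadherin, was above the limit, at 0.55 ± 0.12.

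Igf2bp3 belongs with Lin28a, Lin28b, Hmga2 and Igf2bp1 to a group of RNA-binding and chromatin proteins of early development linked to the let-7 microRNAs. All 4 of these relatives were lower in all 3 clones, as were 20.4% of all genes above the limit, and none passed. The OHT+ and OHT- arrays did not overlap for 2 of them, Hmga2 and Lin28a, against 8.24% of genes above the limit. Hmga2 was at 626, 646 and 636 without OHT and 416, 445 and 488 with it, a difference of -0.50 ± 0.11 (SE; limma adjusted p 0.465). Lin28b was at -0.44 ± 0.17, Lin28a at -0.40 ± 0.14 and Igf2bp1 at -0.23 ± 0.16. Of the intermediate filament genes, relatives of Nes, 7 were above the limit and 4 were lower in all clones, with Prph at -0.43 ± 0.12, Ina at -0.32 ± 0.12 and Nefm at -0.31 ± 0.16. Vim, which is expressed widely, was at 0.17 ± 0.19. Only 2 of the 7 measured genes of the cannabinoid system besides Cnr1 were above the limit, Faah at 0.07 ± 0.20 and Napepld at 0.12 ± 0.17. Among the repressors that share Insm1's type of N-terminal domain, Snai1 was at 0.35 ± 0.15.

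Of 8 inhibitors of neural differentiation, Bmp4, whose protein blocks neural fate in early embryos, rose with the dim genes left out. It was at 148, 142 and 136 without OHT and at 389.5, 405 and 352 with it in clones 3031, 3086 and 3087, a difference of 1.43 ± 0.11 (SE; limma adjusted p 0.00902 in that fit and 0.251 over all genes). Id3, an inhibitor of proneural factors, was at 0.65 ± 0.13 and did not pass (limma adjusted p 0.101 with the dim genes left out). The other Id genes did not go the same way. Id1 was at -0.32 ± 0.15 and Id4 at -0.24 ± 0.11, both lower in all clones, and Id2 was at -0.09 ± 0.19. Rest, the repressor of neuronal genes outside neurons, was at 0.05, 0.67 and -0.45 in the 3 clones.

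Markers of other cell states were read beside the neural genes, and 0 passed limma over all genes. Of the 12 embryonic stem cell markers 10 were higher in all 3 clones, as were 18.2% of all genes above the limit. Utf1 was lower in all 3 (mean -0.27), and Pou5f1 was at -0.18. Fbxo15 (1.36 ± 0.13 SE, limma adjusted p 0.012) rose with the dim genes left out. The summed level of the list was 99538 to 106348 without OHT and 111746 to 119244 with it. Dppa5a alone was at 36080 ± 709 (SD) and 37949 ± 1678. Of 18 fibroblast markers above the limit 12 were higher in all clones and 1 lower. Over all 27 measured fibroblast markers the sum lay between 28290 and 33905 without OHT and between 28589 and 34590 with it. These sums overlap, but they weigh bright genes most, and Fn1 alone was at 10243 ± 1840 (SD) and 9962 ± 805. The overlap of the sums therefore says little about the dimmer markers. Pdgfrb was at 1.34 ± 0.23 (SE, dim genes left out) and did not pass in that fit, though it rose with the clone as a block in addition. Of 14 primitive endoderm markers 6 were above the limit, 4 of them higher in all clones and 1 lower, and 0 passed. The 4 were Lama1, Lamb1, Col4a1 and Col4a2, and the lower one was Dab2. Of the transcription factors in the list, Gata4 was at 0.0024. Gata6, Sox17, Foxa2, Hnf4a and Sox7 were dim, at -0.05, 0.0075, -0.60, 0.58 and 0.056. The sum over all 14 was 6966 to 7642 without OHT and 7825 to 8601 with it, and Lamb1 alone was at 3623 ± 151 (SD) and 4015 ± 160. The part of these cell states in the neural values was not tested.

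By the mean of the scaled profiles of the 9 genes over the 6 arrays, the genes above the limit with the most similar pattern were Etv6 (Pearson r 0.996), Prkaa1 (0.996), Ptpn13 (0.995), Mllt11 (0.987) and Cep120 (0.983). Etv6, an ETS-family repressor, was at 540.1, 501 and 425 without OHT and at 278, 337 and 270.4 with it in clones 3031, 3086 and 3087. Ptpn13, a protein tyrosine phosphatase gene, was at 328, 324 and 293 and then at 168, 209 and 173. In both, clone 3031 had the largest difference, as in the median of the 9 genes. They were picked for this likeness, so nothing is read from it. Among the 9 genes, Sox1, Nes, Cnr1 and Insm1 had their largest difference in clone 3086 or 3087. An r of at least 0.9 was reached by 167 genes, the 6 arrays share 3 clones and 1 contrast, and the measure is a description.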

How the data were processed

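Total RNA was labelled as biotin-cRNA and hybridised to 6 Affymetrix mouse arrays, per the labels' protocols. The deposited values are in units of intensity. Expression Console (Affymetrix) and RMA are named in the submitters' processing notes, with neither role nor version. They run from 0.140 to 45795 with identical sorted values on all arrays, so they were taken as linear and quantile normalized, and log2 was computed with no pseudocount. GEO's annotation gave 34958 probe sets 1 symbol, 932 several and 9211 none. The probe set with the highest mean log2 stood for each gene. Fits used limma 3.58.1 (lmFit, eBayes) in R 4.3.3 on Yaf2 status and OHT, with 3 residual degrees of freedom. Benjamini-Hochberg adjustment and a threshold of 0.05 were used. The fit was also run on simulated data with independent arrays and no clone differences, so that run does not cover the pairing by clone. Array number limits the precision. The p-values rest on the spread among these arrays alone.

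The members and lists were chosen with earlier results of these data known. Named genes were the members, list genes that passed in the fit over all genes or with the dim genes left out, otherwise up to 3 per list with the largest difference of 1 direction above the limit, relatives of members, and the 5 most similar genes; other list genes were named after their values were seen. OHT+ and OHT- arrays of a clone are paired by the labels' clone number in the per-clone differences. The main fit has no clone term, so its SE and p-values treat arrays of the same clone as independent, for OHT and for Yaf2. Alternatives were a filter on dim genes, an intensity trend, all probe sets, a pseudocount of 32, a floor, the median probe set, recentring, the clone as a block and leaving out arrays or clones.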

Additional observations from a re-analysis of the deposited data

Results flagged for a closer look

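The dimmer Sox1 probe set, 1422205_at, is given here because clone 3031 moved the opposite way from both Yaf2kd clones. The OHT difference (log2) came to 0.16 for clone 3031, against -1.62 for clone 3086 and -1.44 for clone 3087. All 6 of its values were under the dim limit, and the difference between the clones was not tested.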

How the results depend on the processing

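The OHT effect called 0 genes over all genes and also with all probe sets, with 32 added and without any array or clone; the range without single arrays was 0 to 0. It called 38 with the dim genes left out (1 to 22 without single arrays) and 60 with an intensity trend. With the clone as a replicate block it called 0, and 64 with that block and the dim genes left out. The cause was not tested, but leaving out dim genes also reduces the genes tested to 10916. The Yaf2 effect called 0 under every alternative run, the clone as a random replicate block included. The median OHT difference of the 9 genes of -0.74 stayed between -0.58 and -0.88 under 7 alternatives. Taking the median over a gene's probe sets moved Nes to -0.11, Cdh10 to -0.35, Cnr1 to -0.58 and Igf2bp3 to -0.61. Without clone 3031, Dclk2 was at -0.05, Kif5a at -0.14 and Cdh10 at -0.30, and without clone 3086 Insm1 was at -1.22. Yaf2 effects that changed sign when single arrays were left out ranged from -0.69 to 0.62 for Cdh10, -0.47 to 0.047 for Cnr1, -0.59 to 0.50 for Dclk2, -0.63 to 0.085 for Insm1 and -0.43 to 0.17 for Sox1, and none of them passed. That of Kif5a kept its sign, from -1.13 to -0.08. The signal over background limits Sox1, Cnr1 and Cdh10, which were dim on 2, 3 and 2 of the OHT+ arrays. Leaving out single arrays from the fit without dim genes was chosen after seeing the data.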
